A study of Homo sapiens with 4 samples.

Results

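Type II topoisomerases are targets of doxorubicin, and the mRNA levels of the topoisomerases and of the 2 enzymes that clear them from DNA were examined here. The genes were taken as the rows of the deposited counts named TOP1, TOP1MT, TOP2A, TOP2B, TOP3A, TOP3B, TDP1 and TDP2, which are 8 of 59050 gene rows. All 8 had counts in every library and all 8 passed the filter on low counts. RNA-seq labelled as HepG2, a cell line established from a human liver tumor, covered 4 libraries in 2 groups. One group held 2 libraries of untreated cells (0 h), and the other held 2 libraries of cells given doxorubicin at 1 ug/ml for 24 h, a treatment used in the study to activate p53. The titles of the libraries name the untreated group nop53 and the treated group p53. The labels call the libraries of a group biological replicates of this single line, and no other treatment or genotype is named. A level below is CPM, the count of a gene scaled by the total count of its library. In bulk RNA such as this, fewer cells of a kind and less RNA per cell cannot be told apart.

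Topoisomerases relieve the twisting of DNA that builds up when it is copied, transcribed and divided between daughter cells. Type I enzymes (TOP1, TOP1MT, TOP3A and TOP3B) cut one strand at a time, and type II enzymes (TOP2A and TOP2B) cut both strands and pass another duplex through the gap. While the DNA is open the enzyme is bound to its end through a tyrosine, and doxorubicin traps the type II enzymes in this state, which leaves protein-linked breaks. TDP1 and TDP2 are phosphodiesterases that cut the bond between the tyrosine and the DNA, TDP1 mainly for type I and TDP2 for type II enzymes. In liver, where hepatocytes seldom divide, TOP2A is low in normal tissue and high in tumors, while TOP2B is made in dividing and resting cells alike.

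The 2 direct targets of doxorubicin differ in the sequence before their start sites, and both stretches are shown because the TOP2A promoter is a textbook example of repeated CCAAT boxes, bound by the factor NF-Y. They were taken from RefSeq (GRCh38.p14), in which 7 of the 8 genes, all but TOP1MT, had a promoter entry. The TOP2A stretch is chr17:40417897-40418146 and the TOP2B stretch is chr3:25664910-25665157, both on the minus strand and written 5′ to 3′ toward the start site. Capitals mark CCAAT boxes, which read ATTGG in both stretches because they lie on the other strand.
TOP2A: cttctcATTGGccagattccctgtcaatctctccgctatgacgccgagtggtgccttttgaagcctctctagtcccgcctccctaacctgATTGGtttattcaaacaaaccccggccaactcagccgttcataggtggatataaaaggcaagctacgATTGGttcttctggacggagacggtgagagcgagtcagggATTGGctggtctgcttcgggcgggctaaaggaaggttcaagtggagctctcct
TOP2B: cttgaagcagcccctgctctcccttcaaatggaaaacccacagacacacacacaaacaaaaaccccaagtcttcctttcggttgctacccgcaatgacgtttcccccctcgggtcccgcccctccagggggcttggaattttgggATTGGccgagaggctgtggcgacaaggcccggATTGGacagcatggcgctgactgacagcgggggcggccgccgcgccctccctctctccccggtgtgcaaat
The letters CCAAT, searched on both strands in the 250 bases before the start, occurred 4 times for TOP2A, 2 times for TOP2B and 0 times for TOP1, TOP3A, TOP3B, TDP1 and TDP2. Of 35093 promoters in the same table, 32.0% held CCAAT at least once and 0.869% held it 4 or more times. The GC box GGGCGG occurred 1 time for TOP2A and 2 times for TOP2B, with 42.6% of all promoters holding it. It also occurred 1 time for TOP1, 2 times for TOP3A, 3 times for TDP2 and 0 times for TOP3B and TDP1. The letters TTTGAA, known as the CHR element of genes of G2 and mitosis, occurred 2 times for TOP2A and 1 time for TOP2B, with 13.3% of all promoters holding them. They also occurred 1 time for TDP1 and 0 times for TOP1, TOP3A, TOP3B and TDP2. These matches describe letters and not bound sites.

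The libraries held between 27572740 and 36272180 counts, so that 3 counts correspond to a CPM between 0.0827 and 0.109. The label HepG2 was not borne out by liver genes. The 10 liver markers examined summed to a CPM between 0.965 and 5.92 per library, ALB (albumin) had between 0 and 3 counts, APOA1 had between 0 and 6, and AFP (alpha-fetoprotein) had between 6 and 43, with 0 to 6 of the 10 markers at 0. Of the 5 simple epithelium markers, KRT8 (2088 to 4105 CPM) and KRT18 (783 to 1793 CPM) were abundant. The others, KRT19, EPCAM and CDH1, were under 1 CPM in every library. Of the 5 stratified epithelium markers, KRT17 stood between 929 and 1587 CPM and KRT14 between 2.39 and 7.43 CPM. The others, KRT5, KRT6A and TP63, were under 1 CPM in every library. The lists for mesenchyme and blood cells summed to between 120.0 and 160.2 CPM and between 0.233 and 2.42 CPM. Untreated replicate 2 stood apart from the other 3 libraries. Among the 17479 genes tested, the untreated replicates were at least 2-fold apart in 45.9% of genes and the doxorubicin replicates in 6.09%. The test of each of the 8 genes and the counts of each list are therefore given with and without untreated replicate 2. Its part in each result was not tested beyond that, and whether it or untreated replicate 1 is the better control cannot be told apart with 2 libraries.

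**Figure D1:**
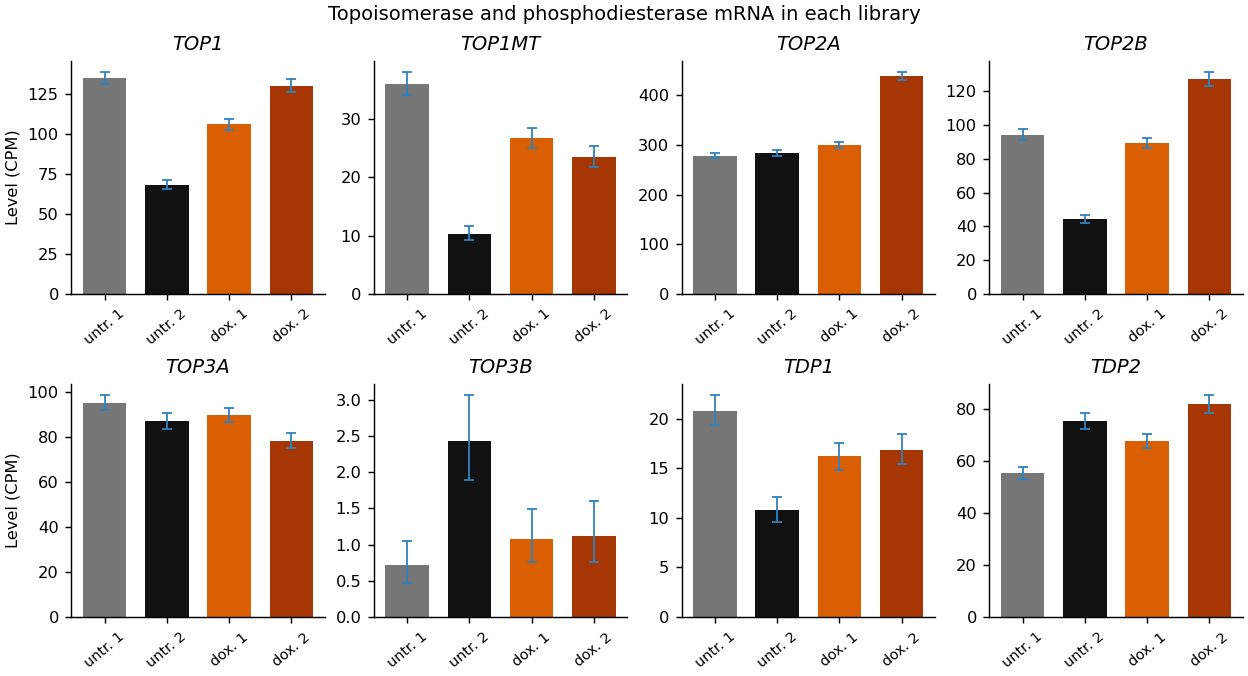
Levels of the 8 genes in the 4 libraries, in CPM on linear axes that start at 0 and differ between panels. Bars are single libraries (untr., untreated, and dox., doxorubicin, with replicate numbers), and error bars are exact Poisson 95% intervals, which cover counting error only. TOP1, TOP1MT, TOP2B and TDP1 were lowest in untreated replicate 2, and TOP3B was highest there.

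TOP2A, the isoform that untangles chromosomes in dividing cells, was the most abundant of the 8 genes, and its difference between the groups did not pass the test. Its level was 278 and 284 CPM in the untreated libraries (replicates 1 and 2) and 300 and 438 CPM after doxorubicin (replicates 1 and 2). In CPM both treated libraries were above both untreated libraries, by a narrow margin in replicate 1 and by a wide one in replicate 2. This order was found in 30.3% of all genes tested. It does not use the TMM scaling factors of the test, with which doxorubicin replicate 1 is not above the untreated libraries. The mean was 281 ± 4.25 CPM in untreated and 369 ± 98.1 CPM in treated cells (SD, n = 2). The log2 fold change was 0.23 (standard error 0.30, 95% interval -0.53 to 0.98, adjusted p = 0.828 by edgeR with Benjamini-Hochberg adjustment), which in linear terms spans 0.694-fold to 1.97-fold. Without untreated replicate 2 it was 0.26 (interval -0.18 to 0.69, adjusted p = 0.568 by edgeR). The 2 doxorubicin replicates differed by 1.46-fold, more than the untreated ones at 1.02-fold, and without doxorubicin replicate 2 the log2 fold change was 0.02. The upper end of the interval depended on the setting, reaching 1.15 on the log2 scale with library size alone and with the replicate block, and 1.87 without doxorubicin replicate 1.

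TOP2B, the isoform tied to transcription and known for its part in the harm doxorubicin does to the heart, depended on which untreated library served as the control. It stood at 94.3 and 44.3 CPM in the untreated libraries (replicates 1 and 2) and 89.4 and 127 CPM after doxorubicin (replicates 1 and 2). Untreated replicate 1 lay between the treated libraries, and untreated replicate 2 lay below all others. The log2 fold change was 0.48 (standard error 0.46, 95% interval -0.67 to 1.63, adjusted p = 0.797 by edgeR). It was 0.05 without untreated replicate 2 (interval -0.41 to 0.50, adjusted p = 0.943) and 1.20 without untreated replicate 1 (interval 0.71 to 1.69, adjusted p = 7.33e-06, both by edgeR). Per kilobase of exon, TOP2A exceeded TOP2B by 3.24-fold and 7.05-fold in the untreated libraries and by 3.68-fold and 3.78-fold in the treated ones (replicates 1 and 2 of each). The balance of the isoforms in treated cells thus lay within the range of the untreated libraries.

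TOP1, which relaxes DNA ahead of polymerases and is the target of camptothecins rather than of doxorubicin, was in treated cells within the range of the untreated libraries. Its level was 134 and 68.2 CPM in the untreated libraries (replicates 1 and 2) and 106 and 130 CPM after doxorubicin (replicates 1 and 2). Both treated libraries lay between the untreated ones. The log2 fold change was 0.06 (standard error 0.42, 95% interval -0.99 to 1.10, adjusted p = 0.973 by edgeR). Its sign turned without untreated replicate 2, to -0.34 (interval -0.78 to 0.10, adjusted p = 0.426), and without untreated replicate 1 it was 0.70 (adjusted p = 0.00793, both by edgeR), which is short of the 2-fold threshold.

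TOP1MT, the only topoisomerase made solely for mitochondria, had the widest gap between the untreated libraries. It stood at 36.0 CPM in untreated replicate 1 and at 10.3 CPM in untreated replicate 2, a 3.48-fold difference, and at 26.7 and 23.5 CPM in doxorubicin replicates 1 and 2. The treated libraries were close to each other and lay between the untreated ones. The log2 fold change was -0.04 (standard error 0.64, 95% interval -1.64 to 1.55, adjusted p = 0.987 by edgeR). Without untreated replicate 2 it was -0.66 (interval -1.15 to -0.17, adjusted p = 0.0879), and without untreated replicate 1 it was 1.20 (interval 0.64 to 1.76, adjusted p = 9.81e-05, both by edgeR). Its direction thus depended on which untreated library served as the control.

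TOP3A, which works with the helicase BLM to separate joined DNA molecules, was the steadiest gene of the set. Its level was 95.3 and 87.1 CPM in the untreated libraries (replicates 1 and 2) and 89.8 and 78.3 CPM after doxorubicin (replicates 1 and 2). In CPM the groups overlapped, since doxorubicin replicate 1 lay between the untreated libraries. The log2 fold change was -0.27 (standard error 0.32, 95% interval -1.07 to 0.52, adjusted p = 0.815 by edgeR) and -0.33 without untreated replicate 2 (interval -0.78 to 0.12, adjusted p = 0.457 by edgeR). With any 1 library left out it stayed between -0.38 and -0.09.

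TOP3B, which acts on RNA as well as DNA, was the lowest of the 8 genes. It had 26 and 70 counts in the untreated libraries and 37 and 31 after doxorubicin (replicates 1 and 2 of each), or 0.717, 2.42, 1.08 and 1.12 CPM. Exact Poisson 95% intervals on these levels, which cover counting error only, ran from 0.468 to 1.05 CPM in untreated replicate 1 and from 1.89 to 3.06 CPM in untreated replicate 2, while those of the treated libraries together ran from 0.759 to 1.60 CPM. Untreated replicate 2 was thus above the other 3 libraries by more than the counting error. The log2 fold change was -0.63 (standard error 0.75, 95% interval -2.50 to 1.25, adjusted p = 0.816 by edgeR), and its sign turned without untreated replicate 2, to 0.47 (interval -0.60 to 1.54, adjusted p = 0.695). Without untreated replicate 1 it was -1.22 (adjusted p = 0.0131, both by edgeR). In the annotation, 88.1% of the exonic bases of TOP3B are shared with PPM1F-AS1 on the opposite strand, and its near-copy TOP3BP1 had between 2 and 4 counts per library. Since the use of strand in counting is not stated, these counts could hold antisense reads.

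Neither phosphodiesterase passed the test. TDP1, which also trims other blocked 3′ ends, stood at 20.8 and 10.8 CPM in the untreated libraries (replicates 1 and 2) and 16.2 and 16.9 CPM after doxorubicin (replicates 1 and 2). The treated libraries lay between the untreated ones. Its log2 fold change was -0.10 (standard error 0.48, 95% interval -1.30 to 1.11, adjusted p = 0.956), -0.48 without untreated replicate 2 (interval -0.998 to 0.039, adjusted p = 0.310) and 0.53 without untreated replicate 1 (adjusted p = 0.101, all by edgeR). TDP2, the enzyme that frees 5′ ends from trapped TOP2, stood at 55.4 and 75.3 CPM in the untreated libraries (replicates 1 and 2) and 67.6 and 81.9 CPM after doxorubicin (replicates 1 and 2). The groups overlapped, since doxorubicin replicate 1 was below untreated replicate 2. Its log2 fold change was 0.03 (standard error 0.34, 95% interval -0.82 to 0.89, adjusted p = 0.979), 0.28 without untreated replicate 2 (interval -0.19 to 0.75, adjusted p = 0.552) and -0.10 without untreated replicate 1 (adjusted p = 0.738, all by edgeR). Per kilobase, TDP2 exceeded TDP1 by 4.31-fold and 11.3-fold in the untreated libraries and by 6.76-fold and 7.85-fold in the treated ones.

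**Figure D2:**
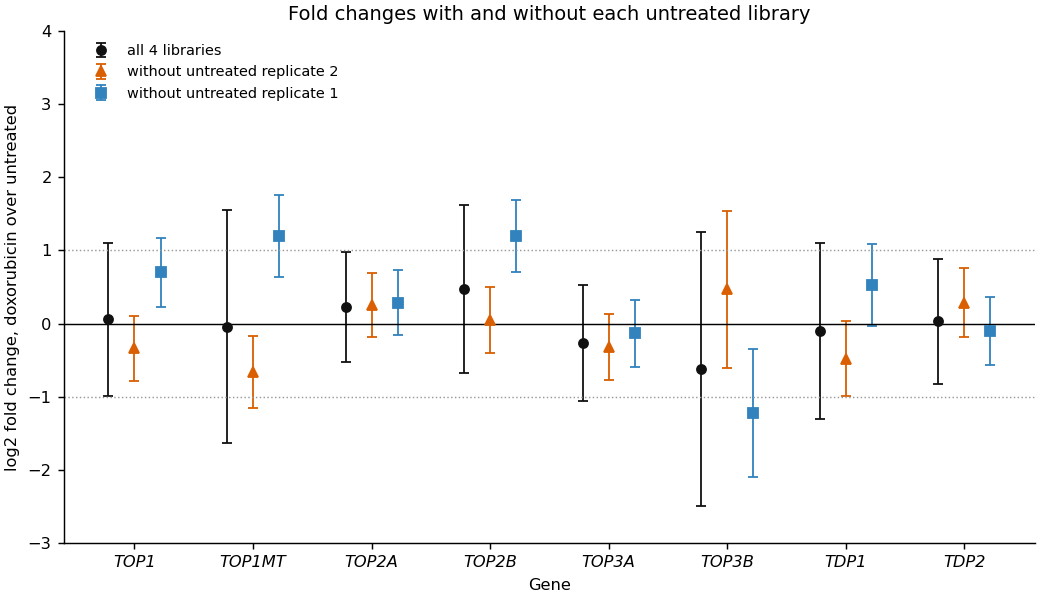
Log2 fold changes of doxorubicin over untreated for the 8 genes, with 95% intervals of the edgeR fit, for all 4 libraries and without each untreated library. Dotted lines mark a change of 1 on the log2 scale. For TOP1, TOP1MT, TOP3B, TDP1 and TDP2 the 2 fits with a single control had opposite signs, while for TOP2A, TOP2B and TOP3A they had the same sign.

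With the thresholds of the study (a change of 2-fold or more with an adjusted p under 0.05), 0 of the 8 genes were called in the fit of all 4 libraries, where 0 of 17479 genes (0.0%) were called. At an unadjusted p under 0.05, 0 of the 8 and 768 of all genes passed in this edgeR test. The study itself reports differentially expressed mRNAs by edgeR at its thresholds, and it does not name which edgeR test it used. Without untreated replicate 2, 0 of the 8 were called against 815 of 18356 genes (4.44%). Without untreated replicate 1, 3 of the 8 were called, with TOP1MT and TOP2B higher and TOP3B lower in treated cells, against 8697 of 19606 genes (44.4%), so that a share of this size was that of all genes. In these 2 fits a lone control is assumed to vary like the treated pair. Both treated libraries lay between the untreated ones for 4 of the 8 genes (TOP1, TOP1MT, TOP3B and TDP1), as for 30.0% of all genes tested. They lay above both for TOP2A alone and below both for 0 of the 8, against 30.3% and 11.5% of all genes. These orders are of CPM without the TMM scaling factors, which change the order for TOP2A, TOP3A and TDP2. Untreated replicate 2 was the lowest library for 4 of the 8 and the highest for 1, against 45.0% and 36.6% of all genes. In the doxorubicin pair 0 of the 8 genes were 2-fold apart, and in the untreated pair 3 were (TOP1MT, TOP2B and TOP3B). An exact permutation test of 2 against 2 libraries cannot give a two-sided p below 0.333, so none was made for single genes.

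Levels can be ranked between genes only per length. Divided by the exonic length of each gene in GENCODE release 44 (basic transcripts), the order of mean CPM per kilobase was TOP2A (57.1), TDP2 (29.9), TOP1 (26.8), TOP2B (14.2), TOP3A (13.3), TOP1MT (10.2), TDP1 (4.26) and TOP3B (0.424). TOP2A was apart from TDP2, with a range of 48.9 to 77.0 against 23.6 to 35.0 CPM per kilobase over the 4 libraries. TDP1 was apart from TOP3B, with 2.85 to 5.49 against 0.228 to 0.770. All other neighbours overlapped in range, although TOP1 exceeded TOP2B, and TOP1MT exceeded TDP1, in each of the 4 libraries. Among 21301 genes with a count in all libraries, the CPM of TOP2A was at or above the 97.1st percentile in each, and that of TOP3B between the 35.1st and the 41.7th. These percentiles are of CPM not divided by length, so they also depend on the length of each gene.

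**Figure D3:**
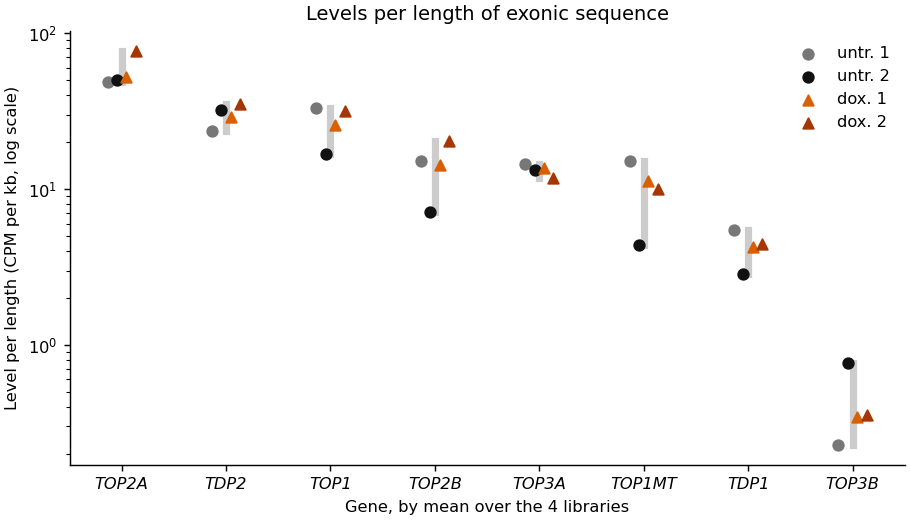
Levels per length of the 8 genes in CPM per kilobase of exon, on a log axis, ordered by the mean over the 4 libraries. Circles are untreated and triangles are doxorubicin libraries, and the grey bar spans the range. TOP2A stands above and TOP3B below the overlapping ranges of the other 6 genes.

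Proteins that work with the topoisomerases were read from lists of known partners. The 5 partners of TOP3A and TOP3B had log2 fold changes between -0.54 and 0.73, with 3 above 0 and a median of 0.34, against a median of 0.01 over all genes tested, and 0 were called. With untreated replicate 2 left out, 4 of the 5 were above 0, the median was 0.22 (all genes 0.05) and 0 were called. BLM had 18.7 and 4.12 CPM in the untreated libraries (replicates 1 and 2) and 17.6 and 25.0 CPM after doxorubicin (replicates 1 and 2). RMI1, a scaffold of the same complex, showed the opposite pattern, with 14.4 and 34.2 CPM in untreated and 15.0 and 22.6 CPM in treated cells. TDRD3, which brings TOP3B to RNA, had 8.49 and 3.67 CPM in untreated and 9.68 and 7.47 CPM in treated cells. In all 3 genes untreated replicate 2 was at an extreme, and among all genes tested it was the lowest in 45.0% and the highest in 36.6%. Of the 4 proteins known for binding TOP1 or TOP2, 3 were above 0 with a median of 0.32, and 4 were above 0 with a median of 0.13 once untreated replicate 2 was left out, with 0 called in either fit. TOPBP1, an activator of the checkpoint kinase ATR, had a log2 fold change of 0.34 and TOPORS, a ubiquitin and SUMO ligase of TOP1, had -0.52. These were 0.14 and 0.21 without untreated replicate 2. Of the meiotic relatives, SPO11 had 3 counts in untreated replicate 1 and 0 in the other libraries, where a count of 0 allows a CPM of up to 0.0874 to 0.109, and TOP6BL had between 7.58 and 9.83 CPM, with a log2 fold change of -0.10 in all 4 libraries and 0.10 without untreated replicate 2.

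The genes that remove trapped topoisomerases and seal the break were as often above as below 0. Of 16 such genes, 8 had a log2 fold change above 0 and 8 below 0, the median was -0.03, and 0 were called. The median without untreated replicate 2 was -0.18 (all genes 0.05), 6 were above 0 and 0 were called. SPRTN, a protease that digests proteins bound to DNA, had 28.1 and 55.8 CPM in untreated and 21.1 and 27.2 CPM in treated cells. ZNF451, the SUMO ligase that helps TDP2 act on TOP2, had 32.1 and 27.5 CPM in untreated and 36.6 and 48.9 CPM in treated cells. RBBP8 (CtIP), a nuclease cofactor, had 43.6 and 17.5 CPM in untreated and 41.3 and 48.2 CPM in treated cells. Among these 3, ZNF451 had both treated libraries above both untreated ones and SPRTN had both below, against 30.3% and 11.5% of all genes tested. PARP1, the sensor that recruits TDP1 to breaks, was the most abundant of the 4 named here, with 420 and 262 CPM in untreated and 345 and 324 CPM in treated cells.

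TOP2A is transcribed in S phase and G2, and 22 genes of these phases and of mitosis were set beside it. Of the 22, 18 had a log2 fold change below 0 and 4 above 0, with a median of -0.38, and 0 were called. Over all genes tested the median was 0.01, and 8873 of 17479 were above 0. Without untreated replicate 2, 18 of the 22 were below 0 and their median was -0.36 (all genes 0.05, with 9963 of 18356 above 0). These were not the same 18 genes, since BUB1 and CCNA2 were above 0 with all 4 libraries only, and CDK1 and NUSAP1 without untreated replicate 2 only. TOP2A, with 0.23 and 0.26 in these fits, lay above both medians. CENPF (0.51 and 0.19) and KIF11 (0.48 and 0.07), a kinetochore protein and a spindle motor, were above 0 in both fits as well, and above TOP2A with all 4 libraries. BUB1, CCNA2, NUSAP1, CENPF and KIF11 are named here after their values were seen. Whether TOP2A differs from these genes was not tested. MKI67, a marker of cycling cells, had 262 and 383 CPM in untreated and 215 and 231 CPM in treated cells. CCNB1, the cyclin of mitosis, had 275 and 162 CPM in untreated and 206 and 201 CPM in treated cells. Its partner CDK1 had 85.0 and 144 CPM in untreated and 101 and 128 CPM in treated cells, and PCNA, the clamp of replication, had 214 and 348 CPM in untreated and 182 and 196 CPM in treated cells. Among these 4, MKI67 and PCNA had both treated libraries below both untreated ones, an order found in 11.5% of all genes tested. Of the rest of the 22, AURKA, AURKB, CDC20, BIRC5, TYMS and MCM5 had this order too. The share among the 22 was thus larger than that of all genes, a difference that was not tested. CENPF alone had both treated libraries above both untreated ones, against 30.3% of all genes. Chosen after their values were seen, CDC20, PLK1 and MCM5 had log2 fold changes of -0.90, -0.89 and -0.67 without untreated replicate 2, each short of 2-fold. NUSAP1 had under 1 CPM in each library.

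**Figure D4:**
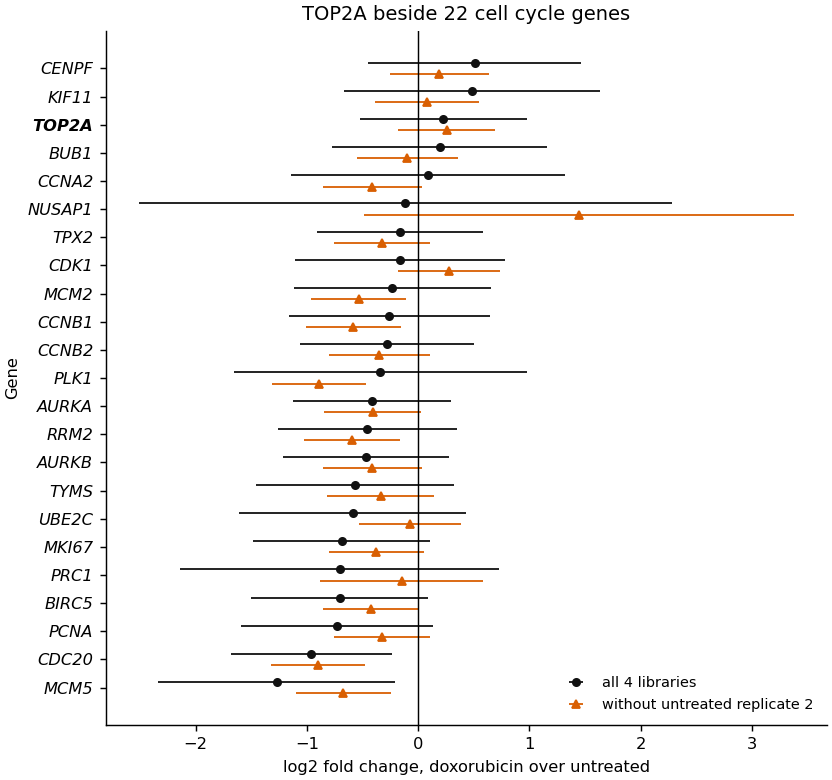
Log2 fold changes of doxorubicin over untreated for TOP2A and 22 cell cycle genes, with 95% intervals of the edgeR fit, for all 4 libraries (circles) and without untreated replicate 2 (triangles). Of the 22 genes, 18 lie left of 0 in each fit, though not the same 18, and TOP2A, CENPF and KIF11 lie right of 0 in both.

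Genes for the upkeep of mitochondrial DNA were set beside TOP1MT. Of 9 such genes, 6 had a log2 fold change below 0, the median was -0.62 (all genes 0.01), and 0 were called. The median without untreated replicate 2 was -0.18 (all genes 0.05), and 8 of the 9 were below 0. TFAM, which packages mitochondrial DNA, had 53.2 and 90.5 CPM in untreated and 45.9 and 58.5 CPM in treated cells. POLG, its polymerase, had 147 and 292 CPM in untreated and 146 and 136 CPM in treated cells. POLRMT, the mitochondrial RNA polymerase, had 195 and 64.1 CPM in untreated and 185 and 173 CPM in treated cells, so that, as for TOP1MT, both treated libraries lay between the untreated ones. Untreated replicate 2 was the highest library for TFAM and POLG and the lowest for POLRMT, as for 36.6% and 45.0% of all genes tested. Among the 5 factors known to bind the TOP2A promoter, 4 were below 0, the median log2 fold change was -0.09 (all genes 0.01) and 0 were called. With untreated replicate 2 left out, 3 were below 0 and the median was -0.17 (all genes 0.05). NFYA, a subunit of NF-Y, had 30.5 and 24.2 CPM in untreated and 29.3 and 29.1 CPM in treated cells, and SP1 had 94.5 and 83.0 CPM in untreated and 80.5 and 106 CPM in treated cells.

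The genes most like each main member were found by the Euclidean distance between log2 CPM profiles over the 4 libraries, each centred on its own mean. Nearest to TOP2A were TWSG1 (distance 0.07), ZC3H8 (0.07) and AF117829.1 (0.08). Nearest to TOP2B were NPIPA9 (0.05), KIF11, a motor of the mitotic spindle (0.05), and CACUL1 (0.06). Nearest to TOP1 were GPD2 (0.07), SNORD101 (0.07) and PTCD3 (0.08). NPIPA9 and SNORD101 had under 1 CPM in every library. Over only 4 points such a match is common, and 1988, 1858 and 2278 genes lay within a distance of 0.5 of TOP2A, TOP2B and TOP1. Among the 8 genes themselves, TOP1 and TDP1 were closest (0.23), followed by TOP2A and TDP2 (0.38) and by TOP1 and TOP2B (0.46).

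The genes lie on 7 chromosomes (GRCh38, GENCODE release 44), and the counts are sums over their exons. TOP1 is at chromosome 20, 41028822 to 41124487, TOP1MT at chromosome 8, 143304384 to 143359979, TOP2A at chromosome 17, 40388525 to 40417896, and TOP2B at chromosome 3, 25597978 to 25664909. TOP3A is at chromosome 17, 18271428 to 18315007, TOP3B at chromosome 22, 21957025 to 21982813, TDP1 at chromosome 14, 89954939 to 90044764, and TDP2 at chromosome 6, 24649979 to 24666930. Apart from TOP3B, at most 2.20% of the exonic bases of a gene are shared with another gene. That largest share is the overlap of TOP1 with the antisense PLCG1-AS1, which had 10, 124, 18 and 8 counts in the order of libraries above, and TOP2B contains the microRNA gene MIR4442, with 185, 68, 186 and 158 counts.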

How the data were processed

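Polyadenylated RNA of 4 libraries labelled as HepG2 was sequenced by the study. Per the methods, the authors checked read quality (FastQC), removed adapters (Cutadapt), aligned to hg38 by HISAT2 and deposited raw counts per gene for each library, without normalization. HTSeq is named for counting, the header names GENCODE release 31 (basic), and versions and the use of strand are not given in the sources used here. A treatment tag of the treated libraries names a miRNA experiment, and their titles and the series design were followed.

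CPM was computed from the column totals. Differential expression was tested by edgeR 4.0.16 under R 4.3.3 (low counts removed by filterByExpr; TMM factors of 0.944, 0.951, 1.02 and 1.09, glmQLFit and glmQLFTest), with p-values adjusted over all genes by Benjamini-Hochberg. Log2 fold changes are doxorubicin over untreated, with a prior count of 0.125, and log2 CPM profiles used a prior count of 2. DESeq2 1.42.0, other edgeR tests, normalizations, filters, a replicate block and leaving out each library were alternatives. The code was tested on simulated data. Exonic lengths came from GENCODE release 44. The genes and lists were chosen with earlier results of these data known. Genes named were the 8 members, fixed examples of each list, any list gene called with or without untreated replicate 2, copies and antisense genes, and the 3 nearest profiles to TOP2A, TOP2B and TOP1. Outside this rule, MIR4442 and the epithelial markers other than KRT8 were named after their values were seen. So were the cell cycle genes BUB1, CCNA2, NUSAP1, CENPF, KIF11, CDC20, PLK1, MCM5, AURKA, AURKB, BIRC5 and TYMS. Depth sets the floor of 3 counts, and intervals on counts cover counting error only. Python 3.11.15 was used for the other steps.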

Additional observations from a re-analysis of the deposited data

How the results depend on the processing

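With all 4 libraries the quasi-likelihood test called 0 genes (768 at an unadjusted p under 0.05), while the exact test of edgeR called 46, the likelihood ratio test 64, DESeq2 89 and the replicate block 20. With any 1 library left out, the count was between 0 and 8697 over all genes and between 0 and 3 over the 8 genes of the report. Each of the other settings called 0 genes, and in every setting with all 4 libraries 0 of the 8 were called. Across genes, the deviations of libraries with the same number correlated at 0.0219, so the block rests on a shared number alone, and the crossed replicate block and the legacy quasi-likelihood fit, both chosen after seeing the data, called 0. Library size alone moved the median of all genes from 0.01 to 0.17 on the log2 scale.

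In 104 of 120 pairs of a gene and a setting the direction was that of the report. TOP2A, TOP2B and TOP3A kept their direction in all 15 settings. TDP1 turned to 0.060 with library size alone. TDP2 turned to -0.022 with DESeq2 and with RLE factors, to -0.044 with upper-quartile factors and to -0.0063 with a filter at a CPM of 1 in 2 libraries. TOP1MT turned to 0.11 with library size alone and to 0.21 with the replicate block and with the crossed block. The cause was not tested. With 1 library left out, the log2 fold change lay between -0.34 and 0.70 for TOP1, -0.66 and 1.20 for TOP1MT, 0.022 and 0.48 for TOP2A, 0.047 and 1.20 for TOP2B, -0.38 and -0.09 for TOP3A, -1.22 and 0.47 for TOP3B, -0.48 and 0.53 for TDP1, and -0.10 and 0.28 for TDP2. Depth limits TOP3B, with 26 to 70 counts, more than the other genes.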

Other observations

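Among the marker genes, 3 were called without untreated replicate 2 (edgeR, Benjamini-Hochberg, with 4.44% of all genes called). FGB, a chain of fibrinogen made by hepatocytes, had 7 and 5 counts in the untreated libraries and 106 and 70 after doxorubicin (replicates 1 and 2 of each) (log2 fold change 3.71, adjusted p = 2.51e-06). DCN, the matrix proteoglycan decorin, had 17 and 18 counts in untreated and 264 and 189 counts in treated cells (log2 fold change 3.80, adjusted p = 8.32e-12). KRT8, a keratin of simple epithelium, had 4105 and 3968 CPM in untreated and 2440 and 2088 CPM in treated cells (log2 fold change -1.003, adjusted p = 7.99e-05). These 3 genes were named because they were called in that fit, so their distance from untreated replicate 1 follows from the choice. Their untreated libraries were close to each other, for FGB at 7 and 5 counts. The treated libraries lay above both untreated ones for FGB and DCN and below both for KRT8. These orders were found in 30.3% and 11.5% of all genes. The order against untreated replicate 1 follows from the choice, so these shares are not a like comparison. The untreated libraries of TOP1MT, TOP2B and TOP3B were over 2-fold apart. With all 4 libraries the log2 fold changes were 3.76, 3.59 and -0.99, each with an adjusted p of 0.773 by the quasi-likelihood test of edgeR. With the same 4 libraries, the exact test and the likelihood ratio test of edgeR and DESeq2 each called 1 liver marker and 1 mesenchyme marker. Of the 10 liver and 5 mesenchyme markers, 4 of each list passed the filter and were tested. Over all 17479 genes tested, these tests called 46, 64 and 89.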
